A study of Mus musculus with 3 samples.

Results

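The genes described here encode the enzymes that make serine, pass its carbon through folate, and build or recycle purine and pyrimidine nucleotides. They were chosen by symbol, and all 33 were found among the 16129 genes of the deposited table. They were measured in group 2 innate lymphoid cells (ILC2s), innate sources of type 2 cytokines that carry no clonal antigen receptor. The cells were sorted by flow cytometry from lungs of wild-type mice treated in vivo with the alarmin IL-33. There are 3 RNA-seq libraries, which carry the same labels and form 1 group, called replicates 1, 2 and 3. No untreated, unsorted or other control group was analysed here, so every value below is a level in IL-33-exposed cells and none is a response to IL-33. The labels give neither the dose and timing of IL-33, the age or number of mice, nor whether each library is its own animal. The spread over libraries may therefore be technical only.

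Proliferating lymphocytes need nucleotides for RNA and DNA. Serine, taken up or made from a glycolytic intermediate, gives a carbon unit to tetrahydrofolate, and mitochondria release that unit as formate. The cytosol uses the formate to build the purine ring and to methylate dUMP to dTMP. Ribonucleotide reductase then turns ribonucleotides into DNA precursors, while salvage enzymes recover bases and nucleosides that are already formed. ILC2s divide in tissue after IL-33, and these pathways are among those that dividing lymphocytes are known to draw on.

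Levels are in TPM, the length-corrected share of transcripts, by which different genes of the same library can be set side by side, given as the mean ± SD over n = 3 libraries. The libraries held 19948056, 19883728 and 19976129 estimated reads. The members had between 144 and 4152 estimated reads per library. The cell label was checked with marker lists. All 14 ILC2 markers were at 1 TPM or more in every library, with Arg1 (2460 TPM), Id2 (1526 TPM) and Il1rl1 (1064 TPM) the highest. The counts at that level were 9 of 12 for macrophages and monocytes, 4 of 7 for epithelium, 2 of 7 for T cells, 1 of 5 for NK cells, 0 of 5 for B cells and 0 of 9 for endothelium and fibroblasts. Of all listed genes, 67.3% were at that level, and the macrophage and monocyte list lay above that share. Macrophage markers, led by Chil3 (375 TPM), Lyz2 (39.1 TPM) and Ear2 (11.7 TPM), summed to 402, 394 and 552 TPM in replicates 1, 2 and 3, and all 12 were highest in replicate 3. Mertk, Siglecf and Adgre1 were below 1 TPM in all 3 libraries. In such bulk samples, fewer cells expressing a gene and less RNA per cell cannot be told apart.

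All 33 members were expressed at 1 TPM or more in each library, against 67.3% of the listed genes. A mean of at least 10 TPM was reached by 30 members (90.9%), against 51.2% of listed genes, and a mean of at least 100 TPM by 10 members (30.3%), against 10.3%. The median member stood at 45.7 TPM, which was 4.08 times the median listed gene (11.2 TPM) and 1.62 times the median detected gene (28.2 TPM). The members together took 0.235%, 0.236% and 0.24% of all TPM in replicates 1 to 3. They spanned a 32.4-fold range from Shmt1 (8.41 ± 0.906 TPM) to Aprt (273 ± 3.38 TPM). Among 32 neighbours in the order of levels, 13 had library values that did not overlap and 19 had values that did. The same share was not computed for all listed genes, so these counts only describe the order.

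**Figure D1:**
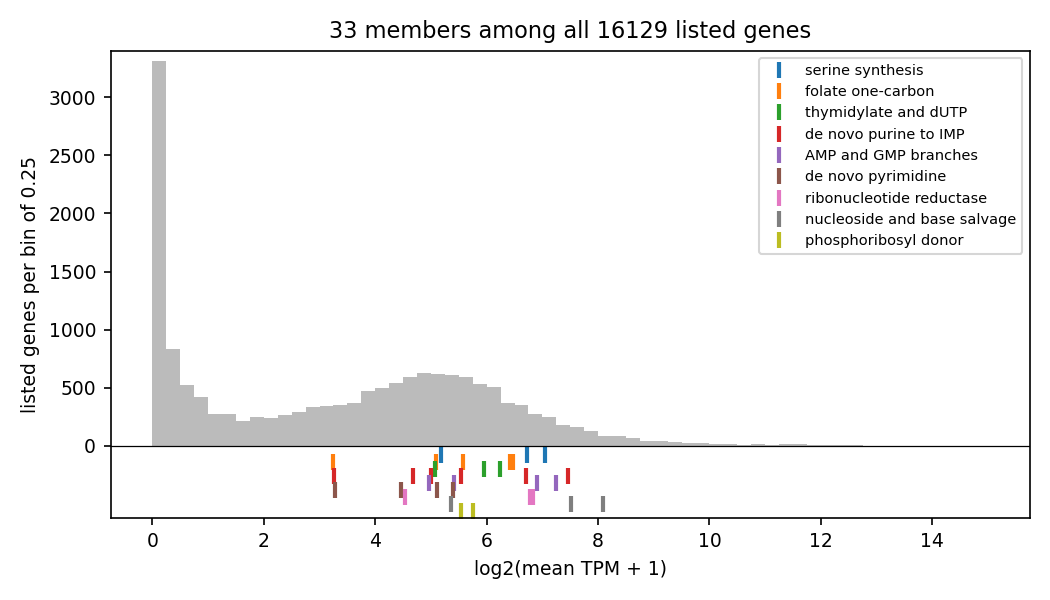
The grey histogram shows all 16129 listed genes by log2(mean TPM + 1), and each coloured tick under it is a member, with a row of ticks for each of the 9 pathway groups. All members lie to the right of the peak of near-silent genes, and 27 of 33 lie above the median detected gene at 28.2 TPM.

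**Figure D2:**
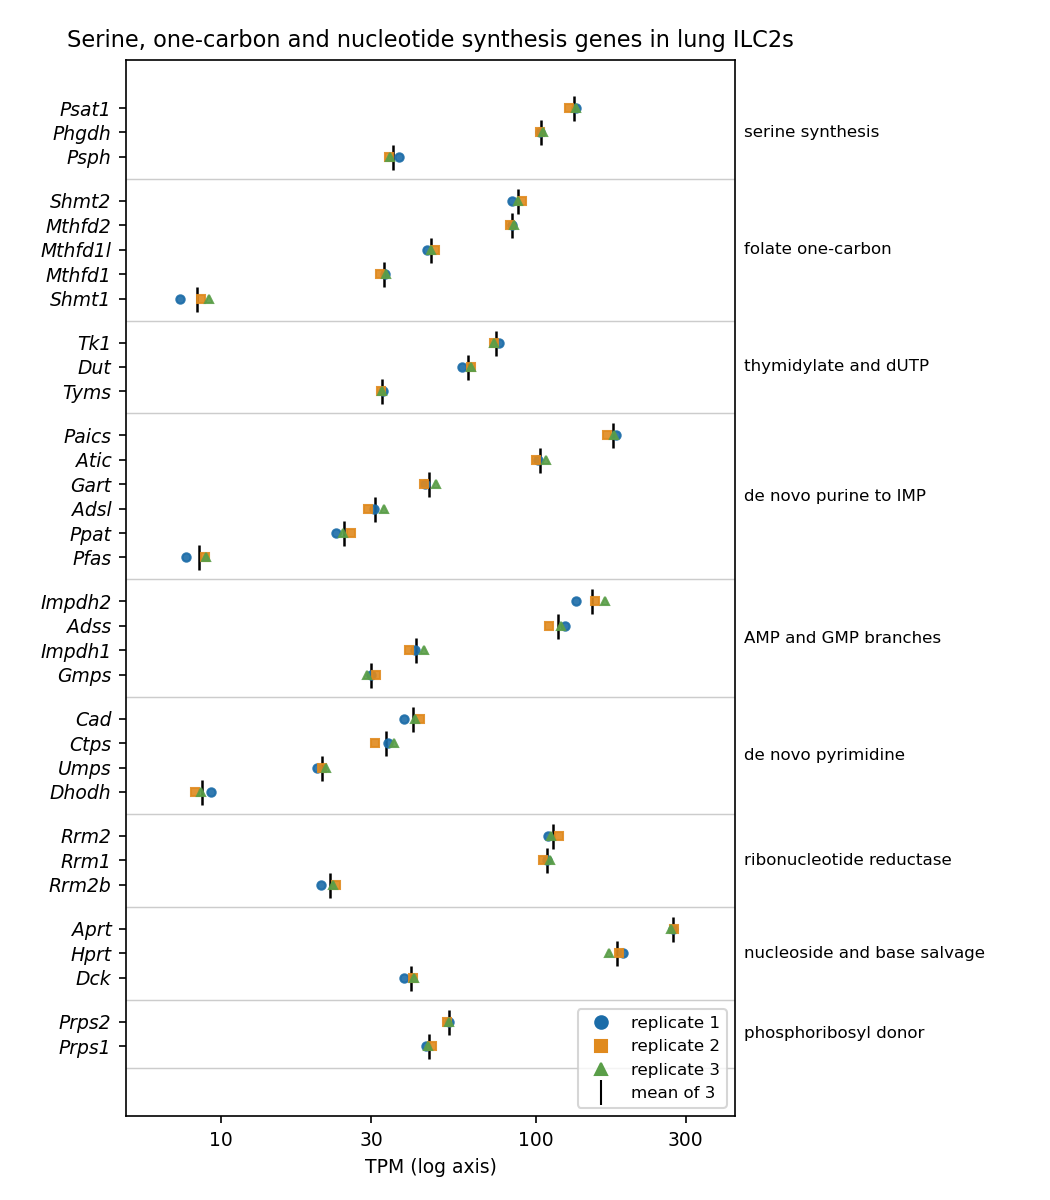
TPM on a log axis for each of the 33 members, grouped by pathway and ordered by level within a group, with a marker for each replicate and a bar at the mean of 3. The 3 replicates of most genes nearly coincide, and Shmt1, Pfas and Dhodh stand apart at the left, each below 10 TPM.

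The serine synthesis pathway was present throughout, with its last enzyme the lowest. Phgdh, which oxidises the glycolytic intermediate phosphoglycerate and commits it to serine, was at 103, 104 and 106 TPM in replicates 1, 2 and 3. Psat1, the transaminase of the next step, was at 134, 128 and 134 TPM. Psph, the phosphatase that releases serine, was at 36.7, 34.3 and 34.5 TPM. Psat1 lay above Phgdh in each library, and Psph lay far below both. Of the 50-base words in Phgdh transcripts, 47.8% also occurred in transcripts of other genes, chiefly a processed pseudogene that the table does not list, so the level of Phgdh is less certain than that of Psat1, with 0.739%. The exons of Psph overlap those of Cct6a on the opposite strand over 10.4% of their length, and the sources used here do not say whether counting used strand.

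Of the genes for serine and folate supply, 12 of 16 listed were at 1 TPM or more in every library, beside 67.3% of all listed genes. The highest was Slc1a5, which carries neutral amino acids including serine and glutamine, at 162 ± 3.36 TPM. Slc38a2, another neutral amino acid carrier, followed at 70.7 ± 4.18 TPM. Ggh, which trims the glutamate tail of folates, stood at 61.9 ± 3.41 TPM and Sfxn3, a relative of the mitochondrial serine carrier, at 50.9 ± 1.35 TPM. The glycine transporter gene Slc6a9 (0.743 ± 0.163 TPM), the folate receptor gene Folr2 (0.577 ± 0.331 TPM) and the serine dehydratase gene Sds were each below 1 TPM in all libraries. Sds was at 0, 0.28 and 0 TPM. The folate carrier genes Slc25a32 (23.05 ± 0.43 TPM), Slc19a1 (21.6 ± 0.885 TPM) and Slc46a1 (2.34 ± 0.2 TPM) were at 1 TPM or more in every library. These carriers were chosen after their values were seen.

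In the folate cycle the mitochondrial members Shmt2, Mthfd2 and Mthfd1l exceeded the cytosolic members Shmt1 and Mthfd1. Shmt2, the mitochondrial enzyme that moves the serine carbon onto folate, was at 84.4, 90.7 and 87.8 TPM, and its cytosolic isozyme Shmt1 at 7.41, 8.66 and 9.17 TPM. No library value of Shmt1 came near those of Shmt2, and the difference was 3.24 ± 0.11 on the log2(TPM + 1) scale, or 9.44-fold. Mthfd2, the mitochondrial dehydrogenase and cyclohydrolase, was at 84.3, 82.8 and 85.7 TPM. Mthfd1l, the mitochondrial synthetase that releases formate, was at 45.3, 47.8 and 46.6 TPM. Mthfd1, the cytosolic enzyme that joins these activities in 1 protein, was at 33.1, 32.1 and 33.4 TPM. Mthfd2 exceeded Mthfd1 by 1.33 ± 0.0098 and Mthfd1l exceeded it by 0.49 ± 0.062 on the log2(TPM + 1) scale, which is 2.52-fold and 1.4-fold. The mitochondrial paralogue Mthfd2l was at 4.40, 5.41 and 5.19 TPM, 3.83 ± 0.14 below Mthfd2 on that scale. In counts scaled to depth and not to length, Mthfd2 minus Mthfd1 was 0.65 and Mthfd1l minus Mthfd1 was 0.64 on the log2 scale.

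Each of the 13 pairs of genes that were compared within libraries had the same direction in 3 of 3 libraries. An exact permutation test that flips signs over libraries (two-sided) gave p = 0.25 for each, which is the smallest value that 3 libraries allow and stays at 0.25 after Benjamini-Hochberg adjustment over the 13 pairs. The size of each difference is therefore set against its SD over libraries.

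**Figure D3:**
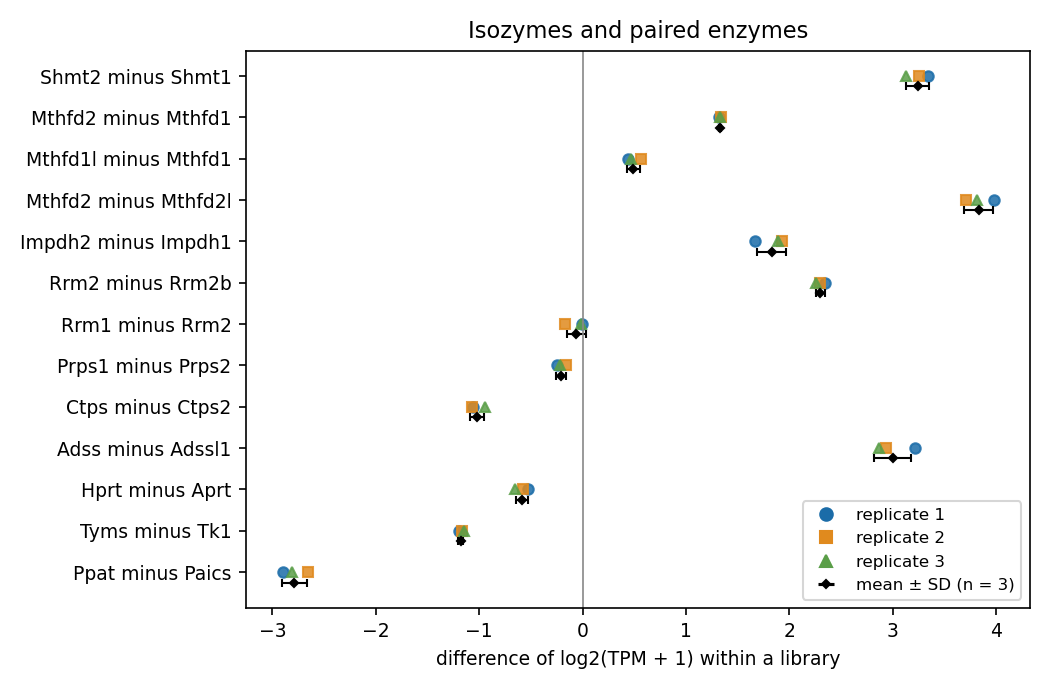
Differences of log2(TPM + 1) within a library, the first named gene minus the second, for 13 pairs; coloured markers are the 3 replicates and the black diamond under them is the mean with its SD as a bar. Shmt2 over Shmt1 (3.24), Mthfd2 over Mthfd2l (3.83) and Adss over Adssl1 (3.00) lie far to the right, Ppat below Paics (-2.79) far to the left, and Rrm1 minus Rrm2 (-0.06) has a bar that reaches 0.

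Of the other one-carbon enzymes, 12 of 19 listed genes were at 1 TPM or more in every library, near the share of all listed genes (67.3%). The methionine cycle genes Mat2b (145 ± 5.17 TPM) and Mat2a (137.5 ± 1.49 TPM), subunits of the enzyme that makes S-adenosylmethionine, were the highest. Dld, a subunit shared by the glycine cleavage system and other complexes, was at 98.1 ± 2.24 TPM and Ahcy, which clears S-adenosylhomocysteine, at 42.9 ± 0.741 TPM. The other genes of the glycine cleavage system were lower and unequal. Gcsh was at 26.6, 28.5 and 28.6 TPM, Gldc at 0.44, 0.59 and 0.37 TPM and Amt at 1.01, 0.82 and 1.12 TPM. The transsulfuration genes Cbs and Cth were at or near 0, at 0.04, 0 and 0 TPM and at 0, 0.22 and 0.07 TPM. Aldh1l2, which oxidises formyl-folate in mitochondria, stood at 0.123 ± 0.0577 TPM, below its cytosolic counterpart Aldh1l1 at 3.74 ± 0.687 TPM. Gcsh, Gldc, Amt and Aldh1l1 were chosen after their values were seen.

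The enzymes of purine ring synthesis were present at unequal levels along the pathway. Prps1 and Prps2, which make the phosphoribosyl donor that the ring is built on, were at 44.8, 46.9 and 45.5 TPM and at 53.3, 52.5 and 53.1 TPM. The values of Prps1 lay below those of Prps2 in all libraries, by 0.21 ± 0.045 on the log2(TPM + 1) scale. Of the 50-base words of Prps1, 9.93% also occur in Prps1l3, which was listed at 35.7 ± 1.03 TPM and is named after its value was seen, so reads of the 2 genes may not be fully separated. Both Prps1 and Prps2 lie on chromosome X in GRCm38.p6.

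Ppat, the amidotransferase that commits the donor to purines, was at 23.3, 25.9 and 24.5 TPM. Gart, which carries 3 activities of the middle of the pathway in 1 protein, was at 44.7, 44.3 and 48.2 TPM. Pfas, the glutamine-using enzyme between activities of Gart, was at 7.73, 8.90 and 8.95 TPM. Pfas was the lowest enzyme of the pathway. Paics, which adds carbon dioxide and aspartate, was at 181, 169 and 178 TPM. Adsl, the lyase that also acts in AMP synthesis, was at 30.6, 29.3 and 33.0 TPM. Atic, which adds the last formyl group and closes the ring to give IMP, was at 102, 101 and 108 TPM. The genes are given in the order of the first step of each. The 3 library values did not overlap between any of the 5 pairs of genes next to each other in this order. The share of such pairs among all genes was not computed, so the count is not read as a trait of the pathway. The widest gap was 20.6-fold, from Pfas to Paics, although an activity of Gart lies between them in the pathway. Antisense transcript exons cover 19.7% of the exonic bases of Gart, which makes its level less certain.

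**Figure D4:**
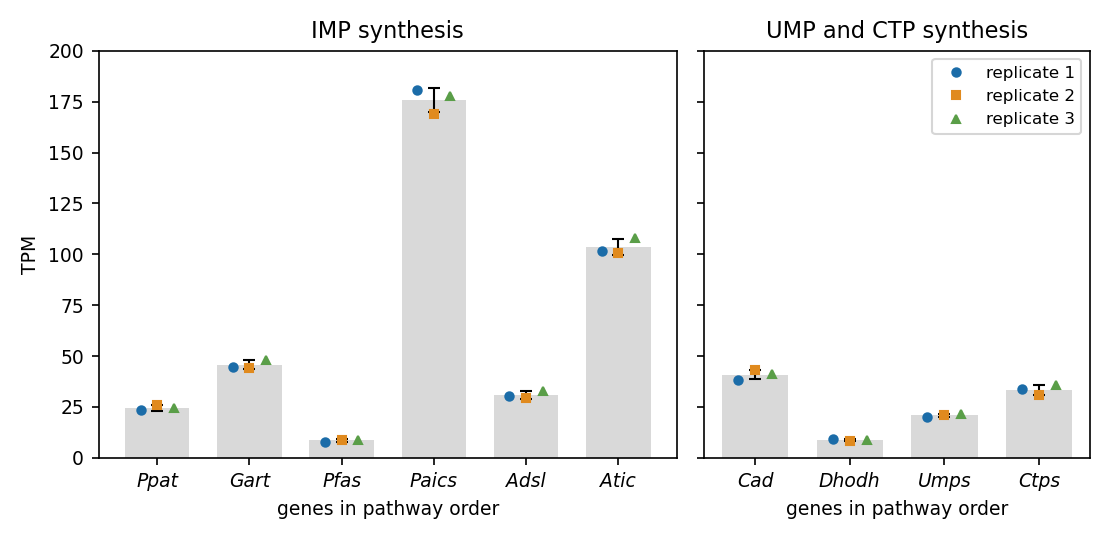
TPM of the 6 genes of IMP synthesis (left) and the 4 of UMP and CTP synthesis (right) in pathway order. Each gene is placed at its first step. Bars start at 0 and give the mean, error lines the SD, and markers the 3 replicates. Paics (176 TPM) and Atic (103 TPM) tower over Pfas (8.53 TPM) on the left, and Dhodh (8.75 TPM) is the lowest on the right.

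Paics and Ppat are neighbours in opposite orientation, and their levels differed 6.92-fold. In GRCm38.p6, Ppat (Entrez gene 231327) occupies chromosome 5 from 76913249 to 76951578 on the reverse strand and Paics (67054) from 76951302 to 76967509 on the forward strand. Their first exons overlap, by 272 bases in the GENCODE annotation. Paics exceeded Ppat by 2.79 on the log2(TPM + 1) scale (SD 0.12), in 3 of 3 libraries. The overlapped bases are 6.15% of the exonic bases of Ppat and 8.67% of those of Paics. Some of the motif matches before the 2 start sites are shown because these genes share a start region at unequal levels. RefSeq promoter sequence of GRCm38.p6 is printed 5′ to 3′ on the strand of the gene, with the motif in capitals: the E-box CACGTG, bound by Myc and related factors, for Paics, and the reverse complement of the E2F word TTTCCCGC for Ppat.
Paics, E-box, chr5:76951087-76951116, forward strand: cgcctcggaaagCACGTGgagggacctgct
Ppat, E2F word, chr5:76951771-76951800, reverse strand: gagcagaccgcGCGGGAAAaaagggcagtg
Ppat, E2F word, chr5:76951718-76951747, reverse strand: aggatcagaggGCGGGAAAgggaggtgcaa
The E-box begins 203 bases before the annotated start of Paics, and the E2F words begin 211 and 158 bases before that of Ppat. The word CCAAT, which is not printed, begins nearer to the start of Paics, 23 bases before it.

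Promoters of the members were searched for 6 motifs on both strands, in windows of 250 bases before and 50 bases after the RefSeq start. Such windows were found for 30 of the 33 members; Dhodh, Pfas and Rrm2b had none. The E-box occurred in 4 members (13.3%), against 12% of the 8793 detected genes with a window and 8.09% of all 27025 genes. The other members with it were Atic, Impdh2 and Tyms, whose matches are shown as the remaining examples of the word.
Atic, chr1:71557137-71557166, forward strand: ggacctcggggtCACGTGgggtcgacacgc
Impdh2, chr9:108560314-108560343, forward strand: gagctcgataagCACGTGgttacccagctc
Tyms, chr5:30073669-30073698, reverse strand: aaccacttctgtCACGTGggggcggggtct
An E2F word (TTTGGCGC, TTTCCCGC, TTTGCCGC or TTTCGCGC) occurred in 2 members, Ppat and Prps2 (6.67%), against 4.97% of detected genes and 2.6% of all genes. The word GCATGCGC, part of the NRF1 motif, occurred in Ctps, Ppat and Shmt2 (10%, against 6.39% of detected genes and 3.05% of all genes). The matches nearest to the start of Shmt2 and Ctps on the side before it are shown; each overlaps a match on the other strand.
Shmt2, chr10:127522443-127522472, reverse strand: cccagtactgcGCATGCGCagggaacgcct
Ctps, chr4:120570321-120570350, reverse strand: agacgtcccgcGCATGCGCgccctagcccc
The ATF4 element TGATGNAA occurred in 1 member, Prps1 (3.33%, against 2.64% of detected genes and 4.51% of all genes). CCAAT occurred in 13 members (43.3%, against 43.8% and 41.1%) and TATAAA in 4 (13.3%, against 8.28% and 15.7%). The median GC content of the windows was 61% for members and 60.7% for detected genes. These matches are letters in a short window and say nothing of which factor was bound.

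The branches from IMP to AMP and GMP were led by Impdh2 and Adss. Impdh2, the main enzyme that oxidises IMP toward GMP in dividing cells, was at 134, 154 and 166 TPM. Its isozyme Impdh1 was at 41.5, 39.7 and 44.2 TPM, below it in each library by 1.83 ± 0.14 on the log2(TPM + 1) scale (3.56-fold). Gmps, which completes GMP, was at 30.1, 31.0 and 29.1 TPM. Adss, which adds aspartate to IMP on the way to AMP, was at 124, 110.3 and 120.4 TPM and exceeded Adssl1, the isozyme best known from muscle (13.9 ± 1.57 TPM), by 3.00 ± 0.18 (8.02-fold). In Impdh2 transcripts, 39.3% of the 50-base words also occur in the processed pseudogene Impdh2-ps, which the table does not list, so its level is less certain.

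Pyrimidine synthesis had the lowest median of the 9 groups, at 27.2 TPM over 4 genes, beside 45.7 TPM for all members. Cad, which joins the initial activities of the pathway in 1 protein, was at 38.3, 43.0 and 41.4 TPM. Dhodh, the mitochondrial dehydrogenase that makes orotate, was at 9.32, 8.29 and 8.63 TPM. Umps, which turns orotate into UMP, was at 20.3, 20.9 and 21.6 TPM. Ctps, which makes CTP from UTP, was at 34.0, 30.8 and 35.6 TPM. Dhodh lay below the other genes in every library. The second CTP synthetase gene, Ctps2, was at 71.7, 65.8 and 69.3 TPM, which is 2.03-fold above Ctps (1.02 ± 0.069 on the log2(TPM + 1) scale).

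Ribonucleotide reductase was represented by nearly equal levels of its replicative subunits. Rrm1, the large subunit, was at 109, 106 and 111 TPM, and Rrm2, the small subunit made in S phase, at 109.6, 119 and 112 TPM. Their library values overlap, and the difference of -0.06 ± 0.089 on the log2(TPM + 1) scale was smaller than its SD. Without length correction, in counts scaled to depth only, it was 0.82. Rrm2b, the small subunit induced by p53 and used outside S phase, was at 20.9, 23.3 and 22.7 TPM. Rrm2 exceeded it 4.92-fold, by 2.30 ± 0.042.

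In TPM, the salvage kinase of thymidylate synthesis lay above the synthase. Tyms, which methylates dUMP, was at 32.6, 32.2 and 32.6 TPM and had the smallest spread of all members. Tk1, the thymidine kinase of S phase, was at 76.4, 73.9 and 73.8 TPM, 1.18 ± 0.024 above Tyms on the log2(TPM + 1) scale (2.26-fold). In counts scaled to depth (CPM) and not to length the direction was the opposite, with Tyms minus Tk1 at 0.50. Dut, which removes dUTP and supplies dUMP, was at 58.3, 62.3 and 62.2 TPM. The 3 genes did not overlap in any library.

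Base salvage held the highest members. Aprt, which recovers adenine, was at 273, 276 and 269 TPM, and Hprt, which recovers hypoxanthine and guanine, at 189.5, 184 and 172 TPM. Aprt exceeded Hprt by 0.59 ± 0.059 on the log2(TPM + 1) scale (1.5-fold), and no library values overlapped. In CPM, Hprt minus Aprt was 0.08, the opposite direction. The values of Hprt overlapped those of Paics, the next member in order. Dck, which phosphorylates deoxycytidine and other deoxynucleosides, was at 38.3, 40.9 and 41.2 TPM.

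Other nucleotide enzymes surrounded these. Of the other purine genes, 18 of 22 listed were at 1 TPM or more in every library, beside 67.3% of all listed genes. They included the nucleotide kinase Ak3 (65.2 ± 2.40 TPM), Itpa, which removes inosine triphosphates (63.5 ± 3.22 TPM), and Prpsap1, a partner of the phosphoribosyl pyrophosphate synthetases (61.4 ± 3.83 TPM). Gmpr, which returns GMP to IMP, was below 1 TPM in all libraries at 0.21 ± 0.052 TPM. Its paralogue Gmpr2, chosen after its values were seen, was at 33.3, 30.5 and 34.0 TPM. Of the other pyrimidine and deoxynucleotide genes, 19 of 24 were at 1 TPM or more in every library, beside the same 67.3%. They were led by the nucleoside diphosphate kinase Nme2 (394 ± 17.3 TPM), the UMP and CMP kinase Cmpk1 (202 ± 2.51 TPM), Samhd1 (199 ± 7.56 TPM) and the nucleotidase Nt5c (162 ± 7.46 TPM). Samhd1, which degrades deoxynucleoside triphosphates, was above Rrm1 and Rrm2 in each library. The pyrimidine breakdown genes Dpyd and Dpys were each at 0.0267 TPM on average, with a value of 0 in 1 library.

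Regulators and neighbouring pathways gave the setting. Of 21 regulators, 18 reached 1 TPM in every library, beside 67.3% of all listed genes. The highest were Rb1 (176 ± 8.20 TPM) and E2f4 (147 ± 3.98 TPM), which restrain S phase genes in resting cells, Trp53 (138 ± 1.47 TPM), and Atf4 (135 ± 1.63 TPM), an activator of serine synthesis genes. Myc, an activator of nucleotide synthesis genes that was chosen after its value was seen, was at 33.8 ± 1.19 TPM, and Mycl was below 1 TPM in all libraries. All 26 replication and cell cycle genes had a mean of at least 10 TPM, against 51.2% of listed genes. Their median was 67.4 TPM, with Pcna (420 ± 16.4 TPM), Mcm6 (214 ± 8.45 TPM), Top2a (203 ± 3.09 TPM) and Mcm3 (155 ± 3.71 TPM) the highest. The 17 glycolysis genes had a median of 160.2 TPM and were led by Gapdh (2480.4 TPM), Ldha (1342 TPM), Aldoa (1169 TPM) and Pkm (884 TPM). The 7 pentose phosphate genes, whose pathway supplies ribose phosphate to Prps1 and Prps2, had a median of 102 TPM and were led by Taldo1 (301 ± 5.64 TPM), Tkt (173 ± 9.23 TPM), Pgls (115 ± 1.69 TPM) and Pgd (102 ± 7.56 TPM). These lists were not tested against the members.

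Between libraries the members varied little. The median SD of log2(TPM + 1) was 0.0535 for members, 0.0558 for detected genes within the members' range of levels, and 0.0612 for all detected genes. For 22 of the 33 members the coefficient of variation over libraries was above the value that counting error alone gives (66.7%), against 63.5% of detected genes within the members' range. The highest library was more than 1.2 times the lowest for 2 members (6.06%), against 6.31% of the 8095 detected genes within the members' range. These were Impdh2 and Shmt1, each at 1.24 times. The count was 0 without replicate 1, where they were at 1.07 and 1.06 times, and 0 without replicate 3, where they were at 1.15 and 1.17 times. Impdh2 had a coefficient of variation of 10.6% beside a counting error of 2.04%, and Shmt1 one of 10.8% beside 7.88%. Both were lowest in replicate 1 and highest in replicate 3, and the part of the macrophage markers, which were also highest in replicate 3, was not tested. Members were highest in replicate 1, 2 and 3 in 9, 10 and 14 cases, against 26.9%, 32.2% and 41% of the detected genes within that range. The members' shares were 27.3%, 30.3% and 42.4%, close to that background.

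**Figure D5:**
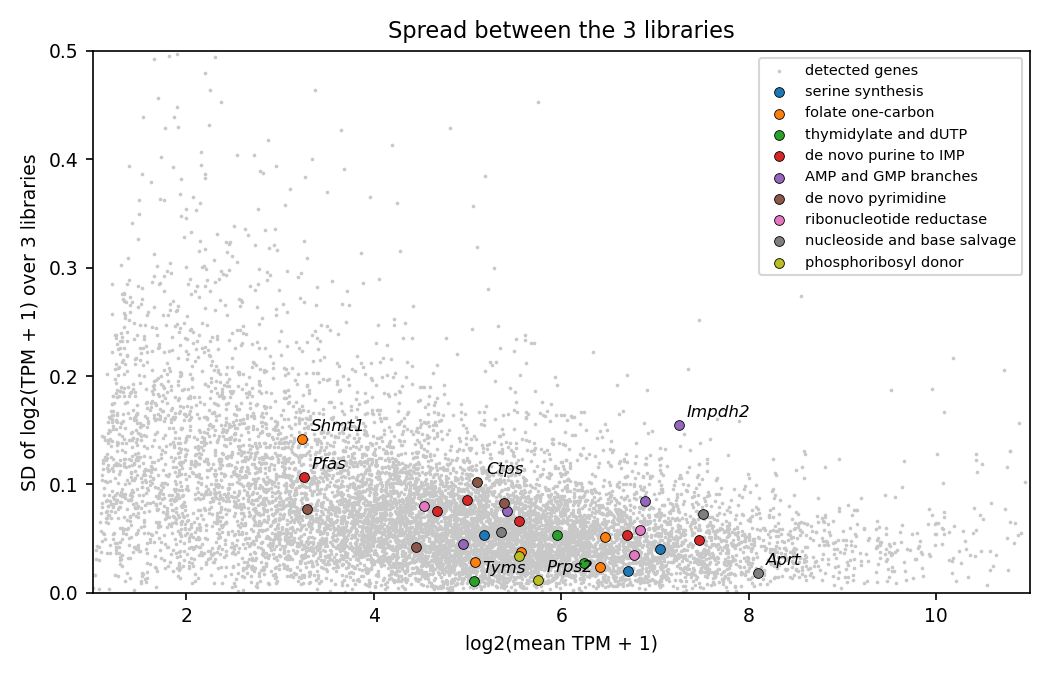
SD of log2(TPM + 1) over the 3 libraries against log2(mean TPM + 1); grey points are detected genes and coloured points the 33 members by pathway. Impdh2 stands above most genes of its level, while Tyms, Prps2 and Aprt lie near 0; 14 detected genes with an SD above 0.5 and 75 with a log2 mean above 11 fall outside the axes.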

How the data were processed

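RNA-seq libraries from 3 samples of 1 group were analysed. Bowtie2, RSEM 1.3.1 and the build GRCm38.p6 are named in the submitters' processing notes, with no roles, settings or annotation. Per the file headers, the authors deposited TPM and FPKM for each gene and library. The deposited expected counts are estimates and not all whole. A further deposited signal, read counts scaled by the authors, equalled the expected count rounded up and multiplied by 1 factor per library for 100% of values above 0 (relative tolerance 1e-06) and was used no further. The members and lists were chosen with earlier results of these data known.

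TPM was used for levels, log2(TPM + 1) for differences, and 1 TPM in every library as the detection level. All 33 members, both genes of 13 pairs, the 4 highest and up to 3 undetected genes of each context list, and the 3 highest markers of each marker list could be named; some of these are not reported here. Positions and promoters are from RefSeq (GRCm38.p6), matched by Entrez gene ID for all 33 members; exon overlaps and shared 50-base words are from GENCODE M21 (GRCm38). Programs (Python 3.11.15, edgeR 4.0.16 for TMM factors on rounded counts) were tested on simulated data. Alternatives were other pseudocounts, detection levels, units and scalings, and leaving out each library.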

Additional observations from a re-analysis of the deposited data

How the results depend on the processing

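Of 120 alternative values, 113 kept their direction or stayed within the limits set for them. Many of these could not have come out otherwise, as given below. For a pair contrast only the direction was judged, not the size. Each pair had the same direction in 3 of 3 libraries, so a smaller pseudocount, FPKM or leaving out a library could not reverse it. Of 78 pair contrasts under an alternative, only those in counts scaled to depth (CPM) but not corrected for length could therefore reverse. In CPM, 3 of the 13 pairs did: Rrm1 minus Rrm2 was 0.82, Hprt minus Aprt 0.08 and Tyms minus Tk1 0.50 on the log2 scale. That unit ranks a long transcript above a short one at equal TPM. It also changed the size of contrasts that kept their direction. Among them, Rrm2 minus Rrm2b was 1.29 in place of 2.30 and Mthfd2 minus Mthfd1 was 0.65 in place of 1.33. Prps1 minus Prps2 was -1.10 in place of -0.21. In FPKM, which is a smaller unit here, the median member was 21.9. Against detected genes in place of all listed genes, the median member was 1.62 times the median. Leaving out each library in turn reversed no pair and left all 33 members detected. It also kept apart the 5 pairs of genes next to each other in the order of IMP synthesis given above. These outcomes were fixed in advance by the values in all 3 libraries, so nothing is concluded from them. No paired analysis was possible because the libraries form 1 group, so replicate numbers pair no samples across groups; genes were compared within libraries. The number of members whose highest library was more than 1.2 times the lowest ranged from 0 to 2 when each library was left out, with 0 without replicate 1 and 0 without replicate 3. The sign-flip test cannot go below 0.25 with 3 libraries. Members near 8 TPM rest on 144 to 537 estimated reads per library.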
